A study of Mus musculus with 3 samples.

Results

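Bone morphogenetic proteins (BMPs) and transforming growth factor beta (TGF-beta) are secreted ligands with a common signaling scheme, and 39 genes of it were examined among 24062 gene symbols. They were chosen as a list of symbols and by no rule on their values, though with earlier results of these data known. The list comprises 8 ligands, 8 type I and type II receptors, the co-receptor *Tgfbr3*, the decoy receptor *Bambi* and 5 antagonists. It also holds 8 SMADs, the corepressors *Ski* and *Skil*, and 6 target genes of the ID and MSX families. All 39 symbols were found in the data. RNA-Seq was performed on rostrums, the anterior part of the head, of mouse embryos at embryonic day (E) 9 with 18 to 22 somites. There was 1 column of counts for *tuft* embryos and 1 for the 3H1 Balb wild type, each treated as 1 library. By the methods of the study, RNA was pooled from 3 embryos for each. The *tuft* embryos were homozygous for a nonsense mutation in *Tet1* that arose spontaneously in the 3H1 colony and truncates the methylcytosine dioxygenase TET1, and they were selected for neural tube closure defects. Each pool therefore carries 1 genotype in every cell of the embryo, and in *tuft* the genotype and the open or curled neural folds cannot be told apart. Although 2 *tuft* samples are on record, there was 1 *tuft* column of counts. It could not be assigned to either of them, and whether it holds 1 of them or both together could not be told.

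A BMP or TGF-beta ligand brings together type I and type II receptors, which phosphorylate receptor-activated SMADs. SMAD1, SMAD5 and SMAD9 serve mainly the BMP receptors, SMAD2 and SMAD3 serve mainly the TGF-beta and activin receptors, and both sets enter the nucleus with the common partner SMAD4. Ligands are held in check outside the cell by antagonists such as noggin, and the response is dampened inside it by SMAD6, SMAD7, SKI and SKIL. In the closing neural tube, BMPs from the surface ectoderm and the dorsal midline pattern the dorsal neural folds, where the ID and MSX genes are well known targets.

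The wild-type library, with 14251942 counts on genes, was 2.22 times the depth of the *tuft* library, with 6433067, and 16914 and 11795 genes had at least 1 count. The 39 genes took 0.215% of the counts on genes in wild type and 0.212% in *tuft*. *Tet1* itself had 435 counts in wild type and 32 in *tuft*, a fold change of 0.214 (95% counting interval 0.145 to 0.307). Alignments that were not unique made up 51.4% of all entries in wild type and 59.2% in *tuft*. The 2 libraries also differed in markers of other tissues, given as normalized counts per 1000000 counts (CPM) summed over each list. Blood markers came to 2868 CPM (wild type) and 40865 CPM (*tuft*), with *Hba-a1* and *Hba-a2* at 0 in both libraries and *Gata1* and *Klf1* at 0 in *tuft*. By the rule given below, 3 of the 10 blood markers were called higher in *tuft* and 3 lower. Of 11 yolk sac markers 9 were called lower and 1 higher (2087 and 334.9, with *Apoa4* and *Apoc2* at 0). Of 10 endothelial markers 6 were called lower and 1 higher (371.3 and 175.2, with *Pecam1* at 0). Among all genes tested, 39.1% were called lower and 22.5% higher. The 12 neural ectoderm markers were all present in both libraries (1076 and 1691), as were the 10 surface ectoderm markers (697.4 and 1140). Of 9 neural crest markers, *Foxd3* and *Snai2* were at 0 in *tuft* (302.0 and 742.3 in sum), and of 10 head mesenchyme markers, *Prrx2*, *Tcf15* and *Tbx1* were (288.8 and 283.4). Heart markers were scarce in both (7.83 and 17.8), with 2 of 9 listed above 0 in *tuft*. Markers called higher and lower were 3 and 1 for neural ectoderm, 2 and 2 for surface ectoderm, and 3 and 2 for neural crest. For head mesenchyme they were 1 and 3, and for heart 1 and 2. The part of these shifts in the values of the signaling genes was not tested.

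Fold changes were calculated as *tuft* over wild type after TMM normalization (trimmed mean of M-values). A gene was called higher or lower where the fold change was past 2-fold and the exact 95% interval of its counts left out 1, among genes whose counts in the 2 libraries summed to at least 20. With 1 library per genotype there is no replicate error and no p-value, and the intervals cover counting error only. By this rule 38 of the 39 genes could be called, all but *Chrd*. Of these, 19 (50.0%) were past 2-fold, beside 61.6% of the 13014 genes tested in all. The 8 genes called higher were 21.1% of the 38, beside 22.5% of all genes, and the 11 called lower were 28.9%, beside 39.1%. The median log2 fold change was 0.09 for the signaling genes and -0.39 for all genes tested. Shares this close to or below those of all genes do not set the signaling genes apart as a list. What follows describes which of them differed between the 2 libraries.

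**Figure D1:**
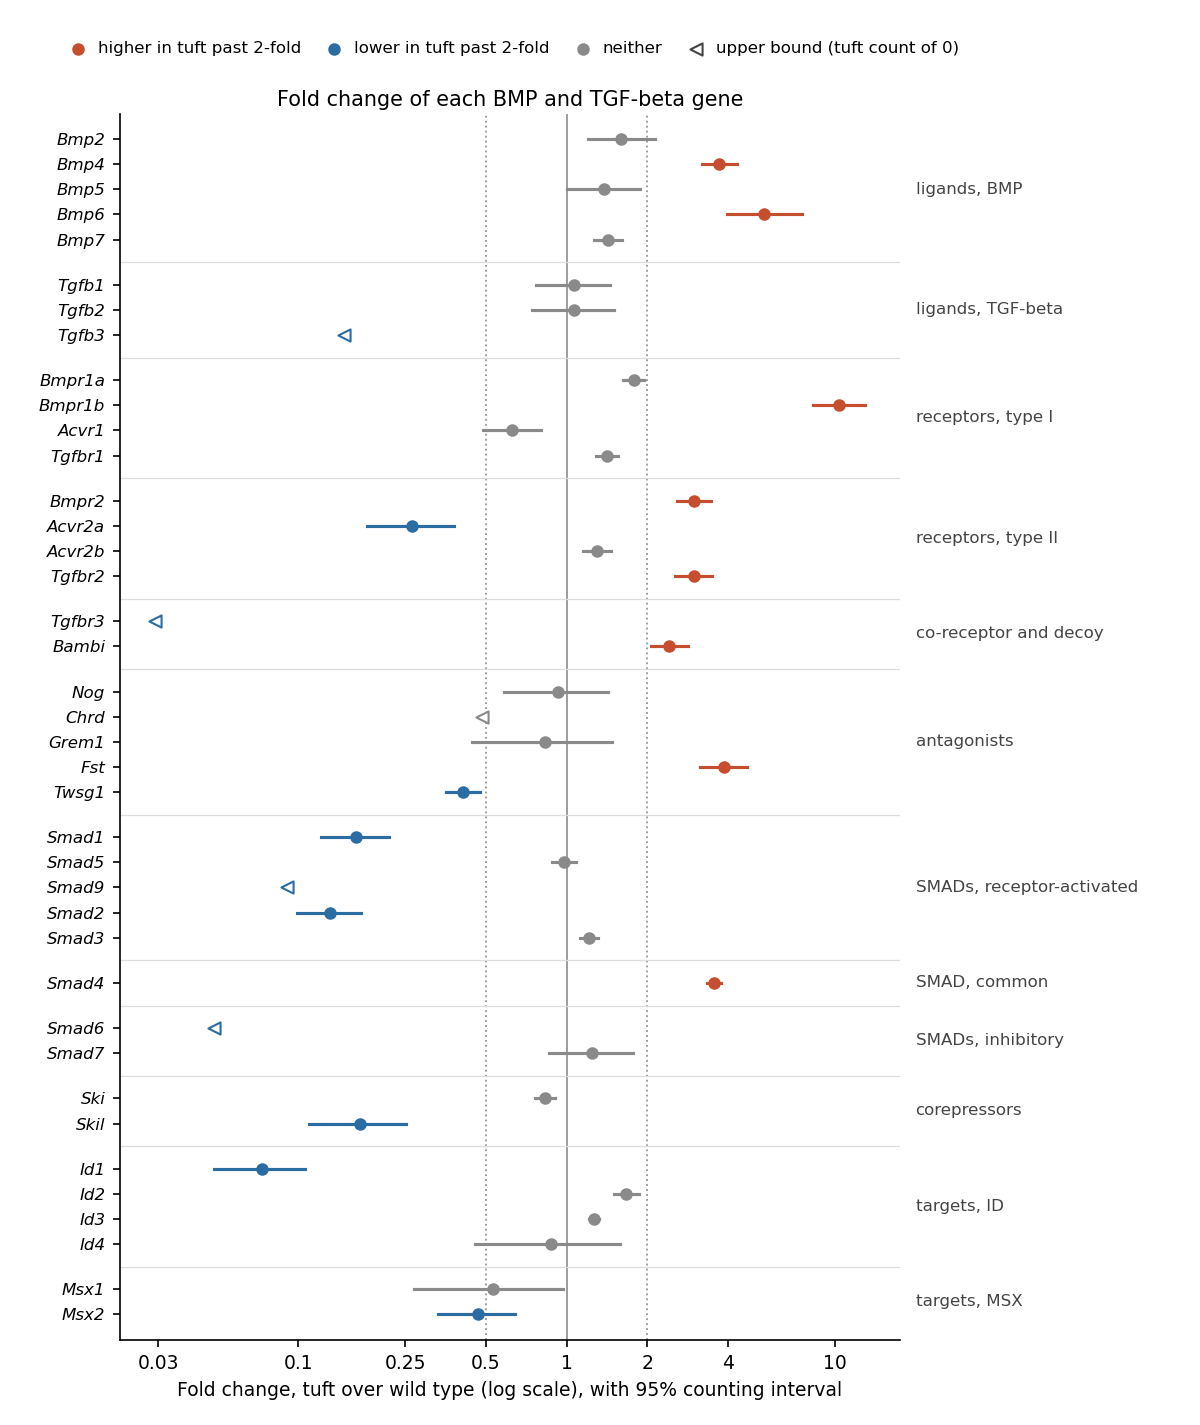
Fold change of each of the 39 genes, *tuft* over wild type after TMM normalization on a log axis, grouped by role, with bars for the exact 95% interval of the counts and open triangles for upper bounds where *tuft* had a count of 0. The 8 genes called higher reach from *Bambi* to *Bmpr1b*, the 11 called lower include 4 bounds and *Msx2*, nearest to the 2-fold line, and *Chrd* is drawn in gray because it had too few counts to be called.

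**Figure D2:**
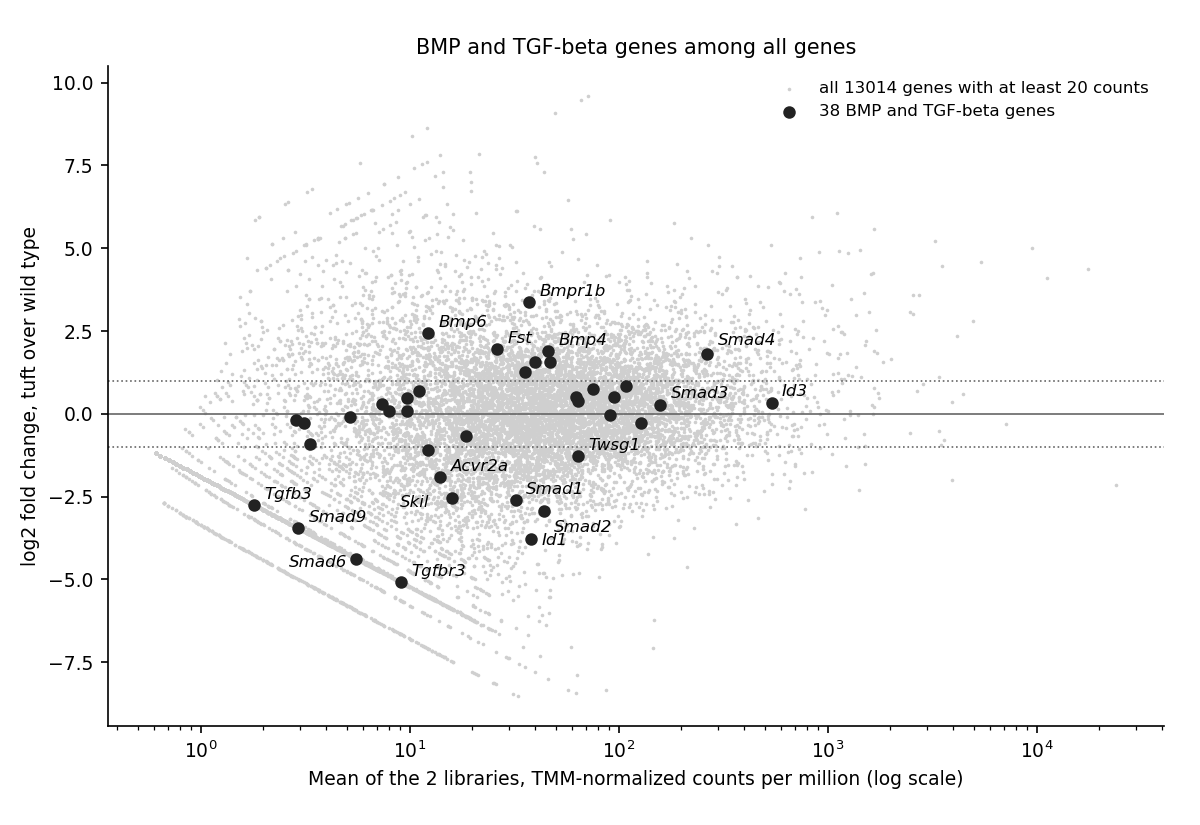
Mean normalized CPM of both libraries (log axis) against log2 fold change for all 13014 genes tested (gray) and 38 signaling genes (black), with dotted lines at 2-fold. The straight rows of gray points at the lower left are genes with very few counts in *tuft*, and *Tgfb3*, *Smad9*, *Smad6* and *Tgfbr3* lie on the row of genes at 0, drawn at their bound of 3 counts.

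The background depended on the level of expression. Among all genes with a mean below 10 CPM, 84.7% were past 2-fold and 71.0% were lower, and of 12 signaling genes at that level 4 were lower and none was higher. From 10 to 30 CPM, 62.5% of all genes were past 2-fold, and of 7 signaling genes 2 were higher and 3 lower. From 30 to 100 CPM, 46.8% of all genes were past 2-fold, and of 14 signaling genes 5 were higher and 4 lower. Above 100 CPM, 46.3% of all genes and 1 of 5 signaling genes, *Smad4*, were past 2-fold.

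The highest fold changes were those of *Bmpr1b* and *Bmp6*, and the lowest among genes with counts in both libraries were those of *Id1*, *Smad2* and *Smad1*. *Tgfbr3*, *Smad6*, *Smad9* and *Tgfb3* had no count in *tuft*, so their fold changes are bounds that cannot be ordered among these values. TET1 acts on methylated CpG dinucleotides, so the 250 bases before an annotated start of transcription are shown with every CpG in capitals for the highest genes, *Bmpr1b* and *Bmp6*, and for *Smad6* and *Smad1*. *Smad6* and *Smad1* had the lowest bound and the lowest value among genes with more than 100 counts in wild type and a promoter in the table used. All are from RefSeq (GRCm38.p6), read 5′ to 3′ on the strand of the gene. The *Bmpr1b* promoter is at chr3:141931589-141931838 on the minus strand, that of *Bmp6* at chr13:38345466-38345715 on the plus strand, that of *Smad6* at chr9:64022060-64022309 on the minus strand and that of *Smad1* at chr8:79399429-79399678 on the minus strand.
Bmpr1b: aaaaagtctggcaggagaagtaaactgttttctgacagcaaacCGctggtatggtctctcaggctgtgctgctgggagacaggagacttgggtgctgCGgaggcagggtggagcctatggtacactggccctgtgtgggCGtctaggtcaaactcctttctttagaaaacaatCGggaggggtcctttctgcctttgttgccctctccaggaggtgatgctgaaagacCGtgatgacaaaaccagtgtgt
Bmp6: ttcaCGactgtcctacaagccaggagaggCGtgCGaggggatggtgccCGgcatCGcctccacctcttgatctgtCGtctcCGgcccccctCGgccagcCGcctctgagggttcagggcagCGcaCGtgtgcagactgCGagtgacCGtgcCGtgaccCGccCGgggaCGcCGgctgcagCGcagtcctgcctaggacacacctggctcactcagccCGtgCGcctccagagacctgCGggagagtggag
Smad6: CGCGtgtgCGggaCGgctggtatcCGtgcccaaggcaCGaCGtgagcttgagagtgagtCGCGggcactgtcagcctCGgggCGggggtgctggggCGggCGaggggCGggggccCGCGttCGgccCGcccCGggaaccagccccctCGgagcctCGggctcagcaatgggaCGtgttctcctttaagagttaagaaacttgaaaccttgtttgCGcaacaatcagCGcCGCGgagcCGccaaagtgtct
Smad1: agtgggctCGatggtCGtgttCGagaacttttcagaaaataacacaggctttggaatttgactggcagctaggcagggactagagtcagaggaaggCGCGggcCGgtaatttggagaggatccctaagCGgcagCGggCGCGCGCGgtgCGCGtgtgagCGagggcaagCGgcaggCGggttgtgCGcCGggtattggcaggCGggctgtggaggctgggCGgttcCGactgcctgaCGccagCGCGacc

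The *Bmpr1b* sequence holds 5 CpGs, that of *Bmp6* 22, that of *Smad6* 27 and that of *Smad1* 25. The table lists 3 starts of *Bmpr1b*, with at most 5 CpGs before each, all of them inside the annotated gene, which ends at 142169585. The window before its outermost start was not analysed here. The *Smad6* window also lies partly inside the annotated gene, which ends at 64022085. The RefSeq table had promoters for 27 of the 39 genes. Of the genes called, it had none for *Smad4*, *Fst* and *Bambi* (higher) and for *Id1*, *Smad2*, *Skil*, *Tgfb3* and *Tgfbr3* (lower). Counted over promoters, the median number of CpGs in 250 bases was 11 for 7 promoters of 5 genes called higher (range 1 to 22), 24.5 for 6 promoters of 6 genes called lower (16 to 49) and 24 for 19 promoters of 16 genes not called (3 to 53). *Bmpr1b* alone supplied 3 of the 7. With each gene counted once, by its start with the most CpGs, the medians were 12 (5 to 22), 24.5 (16 to 49) and 24 (4 to 53). Over promoters, the median was 22 for all 32 promoters of the signaling genes and 6 for the 32851 promoters in the table. The motif GGCGCC, a GC-rich SMAD1/5 motif that reads the same on both strands, was found in 10 of 32 promoters of the signaling genes (31.3%) and in 9.59% of all promoters. It was in 1 of 7 promoters of genes called higher, 1 of 6 called lower and 8 of 19 not called. The motif itself holds a CpG, and all promoters had fewer CpGs than these. Whether the rates differ beyond base composition was not tested. The SMAD-binding motif CAGAC, searched on both strands, was found in 13 of 32 (40.6%) and in 42.2% of all. Methylation was not measured in these libraries, and the promoter counts are a description of the reference sequence.

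Among the BMP ligands, *Bmp4* and *Bmp6* were higher in *tuft* and none was lower. *Bmp4*, the ligand of the surface ectoderm and dorsal midline (chromosome 14, 46383525 to 46390669 in GRCm38.p6), had 320 counts in wild type and 407 in *tuft*, or 19.6 and 72.5 CPM. *Tuft* was 3.70-fold higher (3.19 to 4.30), and the raw count was higher in *tuft* although that library was the shallower. *Bmp6* (chromosome 13, 38345716 to 38500314), which is made in the dorsal midline of the brain, had 62 and 116 counts, or 3.79 and 20.7 CPM, a fold change of 5.45 (3.97 to 7.54). In bulk tissue of this kind, more cells that express a gene and more RNA per cell cannot be told apart. *Bmp7*, whose protein forms heterodimers with BMP4, had 837 and 411 counts (51.2 and 73.2 CPM) and a fold change of 1.43 (1.27 to 1.61). *Bmp2*, the closest relative of *Bmp4*, had 140 and 77 counts with a fold change of 1.60 (1.20 to 2.13), and *Bmp5* had 133 and 63 with 1.38 (1.01 to 1.88). These 3 ligands were under 2-fold.

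**Figure D3:**
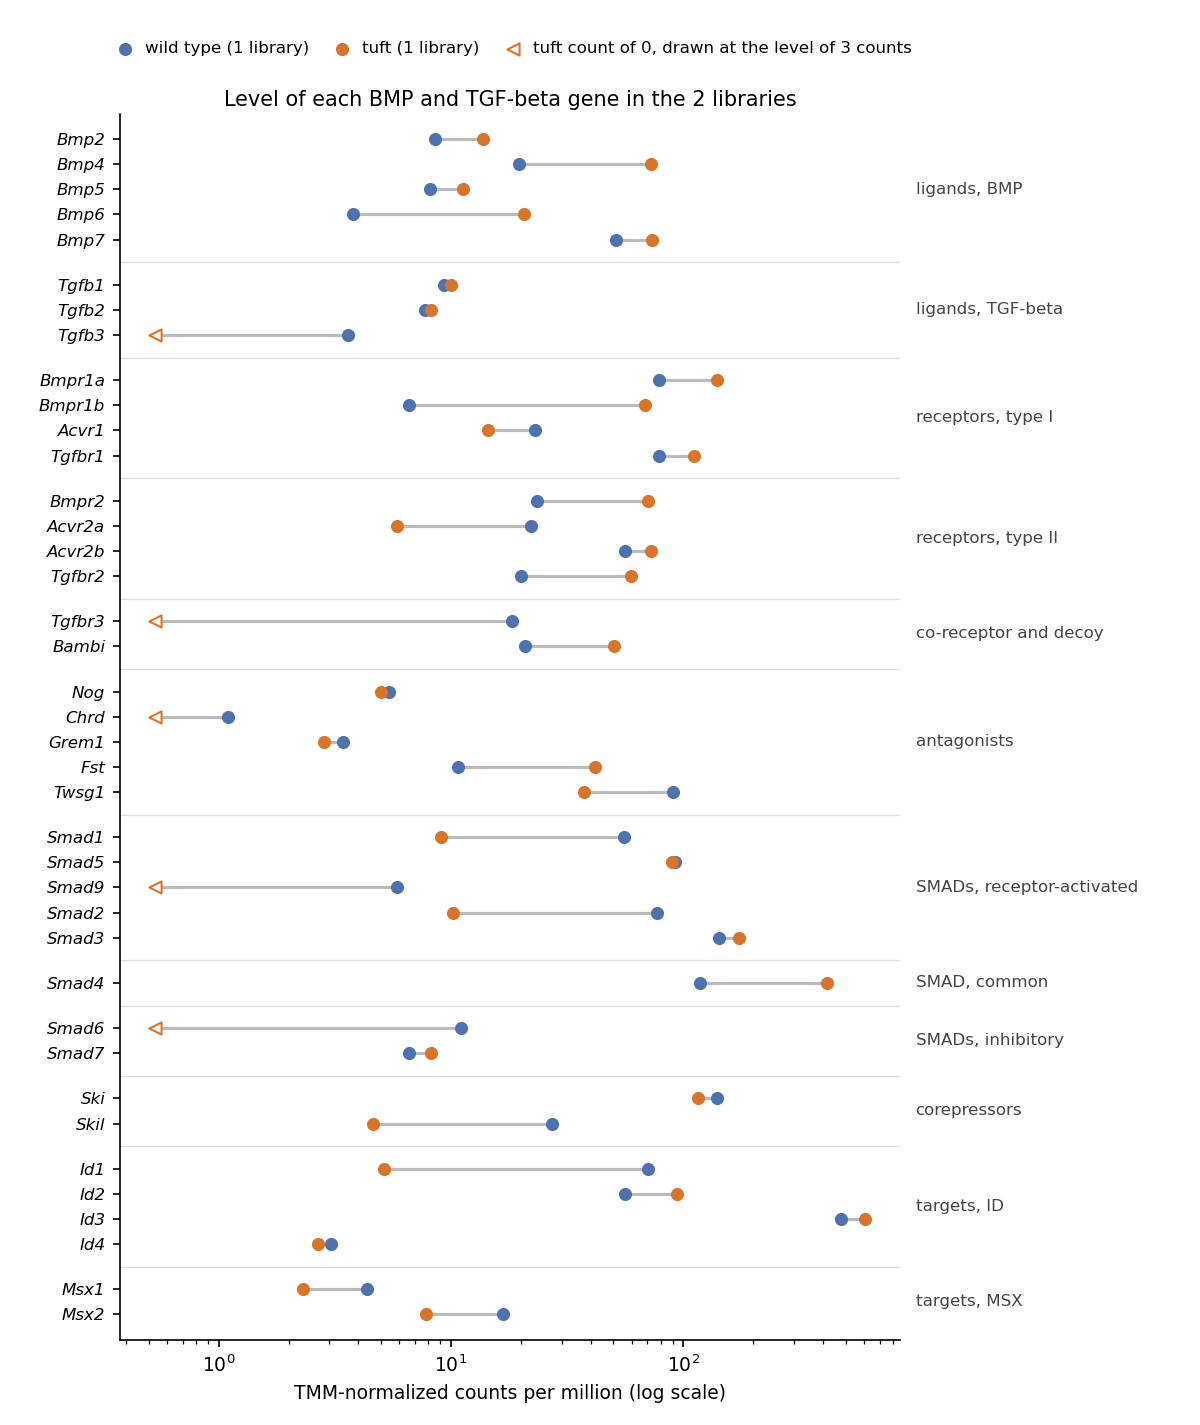
Normalized CPM of each of the 39 genes in the wild-type and the *tuft* library (log axis), grouped by role, with a line joining the 2 libraries of a gene and genes at a count of 0 drawn as their limit of 3 counts. Lines run to the right where *tuft* is higher, the longest of these belonging to *Bmpr1b* and *Bmp6*, and to the left where it is lower, as for *Id1*, *Smad1* and *Smad2*.

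The summed counts of the 5 BMP ligands were 1492 in wild type and 1074 in *tuft*, 2.10-fold higher in *tuft* (1.94 to 2.27), and 1.59-fold higher when libraries were scaled by their totals alone. The makeup of this sum also differed. *Bmp4* made up 21.4% of BMP ligand counts in wild type (exact 95% interval 19.4 to 23.6) and 37.9% in *tuft* (35.0 to 40.9), while *Bmp7* made up 56.1% (53.5 to 58.6) and 38.3% (35.4 to 41.3). *Bmp6* made up 4.16% and 10.8%, *Bmp5* 8.91% and 5.87%, and *Bmp2* 9.38% and 7.17%, with intervals that overlapped between the libraries for *Bmp2* alone. Shares within a family do not depend on how the libraries are scaled, but they are shares of counts and not of molecules, since genes differ in length. Per kilobase of exon, *Bmp7* was above *Bmp4* in wild type (12.7 and 8.81 CPM per kilobase) and below it in *tuft* (18.2 and 32.6). *Bmp4* overlaps 2 noncoding genes in RefSeq and *Bmp6* overlaps *Txndc5* and *4930579J19Rik*. The counting may or may not have used the strand, which is not given in the sources used here, so reads of such neighbors cannot be told apart. The same holds for *Fst*, *Tgfbr2*, *Tgfbr1*, *Tgfb2*, *Bmp7*, *Smad3*, *Smad7* and *Id4*, which overlap noncoding genes, and for *Chrd*, which overlaps *Thpo*.

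The 3 TGF-beta ligands differed from each other. *Tgfb1* had 153 counts in wild type and 56 in *tuft* with a fold change of 1.07 (0.770 to 1.46), and *Tgfb2*, the isoform needed for craniofacial development, had 126 and 46 with 1.06 (0.741 to 1.5). Both intervals include 1, and both values were below 1 with library totals (0.811 and 0.809). *Tgfb3*, best known for its part in fusion of the palate (chromosome 12, 86056743 to 86079041), had 59 counts in wild type and 0 in *tuft*. It was 6.75-fold lower at the limit of 3 counts used for a count of 0, and at least 5.32-fold lower by the exact 95% interval. Such zeros were common in *tuft*. Of all genes with a wild-type count close to that of *Tgfb3* (47.2 to 73.8 counts), 42.8% had no count in *tuft*. *Tgfb3* made up 17.5% of TGF-beta ligand counts in wild type, and in *tuft* the 0 of 102 counts allows a share of up to 2.94% by the limit of 3 counts and of up to 3.55% by the exact 95% interval.

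Among the receptors, *Bmpr1b*, *Bmpr2* and *Tgfbr2* were higher in *tuft* and *Acvr2a* was lower. *Bmpr1b*, a type I receptor for BMPs (chromosome 3, 141837135 to 142169585), rose from 108 counts in wild type to 383 in *tuft*, or from 6.61 to 68.3 CPM. This 10.3-fold difference (8.32 to 12.9) was the largest increase of the 39 genes. Its near relative *Bmpr1a*, the broadly expressed type I receptor for BMP2 and BMP4, had 1282 and 784 counts (78.5 and 139.7 CPM) and a fold change of 1.78 (1.63 to 1.95). In wild type *Bmpr1b* thus made up 7.77% of the counts of both (6.42 to 9.30) and in *tuft* 32.8% (30.1 to 35.6). *Bmpr2*, the type II receptor dedicated to BMPs, had 384 and 394 counts, 2.99-fold higher in *tuft* (2.59 to 3.45). *Tgfbr2*, the type II receptor of TGF-beta, had 328 and 335 counts, 2.97-fold higher (2.55 to 3.47). Raw counts of these last receptors were almost equal in both libraries, so each fold change is close to the ratio of the normalized library sizes.

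*Tgfbr1*, the type I receptor that pairs with *Tgfbr2*, had 1282 and 622 counts with a fold change of 1.41 (1.28 to 1.56). *Tgfbr2* made up 20.4% of the counts of both in wild type (18.4 to 22.4) and 35.0% in *tuft* (32.0 to 38.1). The receptors first described for activin and its relatives were not higher past 2-fold. *Acvr2a*, a type II receptor that binds activins and BMPs (chromosome 2, 48814109 to 48903264), had 362 counts in wild type and 33 in *tuft*, a fold change of 0.265 (0.180 to 0.380). *Acvr2b*, with the same ligands, had 913 and 408 counts with 1.30 (1.16 to 1.46), and was at 0.990 with library totals. *Acvr1*, a type I receptor for BMPs, had 376 and 81 counts with 0.627 (0.487 to 0.799), and was past 2-fold with library totals (0.477). *Acvr2a* made up 21.9% of the counts of these 3 receptors in wild type and 6.32% in *tuft*, with intervals that did not overlap. *Acvr2a* overlaps *Orc4* and *Acvr1* overlaps *Upp2* in the annotation.

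The co-receptor betaglycan, *Tgfbr3*, and the decoy receptor *Bambi* went opposite ways. *Tgfbr3*, which presents TGF-beta to the signaling receptors (chromosome 5, 107106567 to 107289629), had 298 counts in wild type and 0 in *tuft*. It was 34.1-fold lower at the limit used for a count of 0, and at least 27.6-fold lower by the exact interval. Of 1300 genes with a wild-type count from 238.4 to 372.5, 6.38% were likewise at 0 in *tuft*. *Bambi*, a receptor without a kinase domain that is itself induced by BMPs, had 341 and 283 counts, 2.42-fold higher in *tuft* (2.06 to 2.84). With library totals the value was 1.84, under 2-fold.

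Of 5 secreted antagonists, *Fst* was higher, *Twsg1* was lower, and the 3 classical BMP antagonists had few counts. Follistatin, *Fst*, which binds activin and some BMPs (chromosome 13, 114452262 to 114458989), had 176 counts in wild type and 233 in *tuft*, or 10.8 and 41.5 CPM, a fold change of 3.86 (3.16 to 4.72). *Twsg1*, which modulates BMP binding by chordin (chromosome 17, 65923065 to 65951187), had 1477 and 209 counts, or 90.4 and 37.2 CPM, with 0.412 (0.355 to 0.477). *Fst* made up 9.70% of the counts of the 5 antagonists in wild type (8.37 to 11.2) and 47.9% in *tuft* (43.4 to 52.5), whereas *Twsg1* made up 81.4% (79.5 to 83.1) and 43.0% (38.6 to 47.5). Noggin, *Nog*, had 88 and 28 counts with a fold change of 0.927 (0.583 to 1.43). Gremlin, *Grem1*, had 56 and 16 counts with 0.832 (0.445 to 1.47). Both intervals include 1, so no difference was detectable at this depth. Chordin, *Chrd*, had 18 and 0 counts, too few to be called.

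Of the 8 SMADs, *Smad4* was higher, 4 were lower and 3 were under 2-fold. The 5 called were 62.5% of the 8 (50% lower), beside 61.6% of all genes (39.1% lower). In the BMP set, *Smad1* (chromosome 8, 79338395 to 79399428) had 904 counts in wild type and 51 in *tuft*, or 55.3 and 9.09 CPM, a fold change of 0.164 (0.121 to 0.218). *Smad5*, which acts beside *Smad1* in the same complexes, had 1505 and 504 counts, or 92.1 and 89.8 CPM, with 0.975 (0.880 to 1.08). *Smad9* (chromosome 3, 54755455 to 54801662), the least abundant of this set, had 96 and 0 counts. It was 11.0-fold lower at the limit used for a count of 0, and at least 8.77-fold lower by the exact interval. Of genes with a wild-type count from 76.8 to 120.0, 30.1% were at 0 in *tuft*. *Smad5* thus held 60.1% of the counts of the set in wild type (58.1 to 62.0) and 90.8% in *tuft* (88.1 to 93.1), and *Smad1* held 36.1% (34.2 to 38.0) and 9.19% (6.92 to 11.9). The 3 genes together had a fold change of 0.645 (0.587 to 0.708), and of 0.491 (0.447 to 0.538) with library totals, which was past 2-fold.

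The TGF-beta and activin set was divided in the same manner. *Smad2* had 1265 counts in wild type and 57 in *tuft*, or 77.4 and 10.2 CPM, a fold change of 0.131 (0.0988 to 0.171). *Smad3*, its partner, had 2335 and 974 counts, or 142.9 and 173.6 CPM, with 1.21 (1.13 to 1.31), and with 0.924 when libraries were scaled by their totals. *Smad2* made up 35.1% of the counts of both in wild type (33.6 to 36.7) and 5.53% in *tuft* (4.21 to 7.10). *Smad5* and *Smad3* were thus within 2-fold of wild type while *Smad1*, *Smad9* and *Smad2* were lower. *Smad4*, the partner of both sets, had 1920 and 2329 counts, or 117.5 and 415.1 CPM, and was 3.53-fold higher in *tuft* (3.32 to 3.75). This was the narrowest interval among the 8 genes called higher, since *Smad4* had the most counts of them.

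The inhibitory SMADs and the corepressors were each represented by 1 lower gene and 1 gene under 2-fold. *Smad6*, which mainly blocks BMP receptors (chromosome 9, 63953076 to 64022085), had 181 counts in wild type and 0 in *tuft*. It was 20.7-fold lower at the limit used for a count of 0, and at least 16.7-fold lower by the exact interval. Of 1050 genes with a wild-type count from 144.8 to 226.3, 15.4% were at 0 in *tuft*. *Smad7*, which blocks both kinds of receptor, had 108 and 46 counts with a fold change of 1.24 (0.859 to 1.77), an interval that includes 1, and 0.944 with library totals. *Ski*, which represses SMAD target genes, had 2285 and 652 counts with 0.831 (0.760 to 0.907). Its relative *Skil* (chromosome 3, 31095058 to 31122923), also known as a target of TGF-beta, had 445 and 26 counts with 0.170 (0.110 to 0.253). *Skil* made up 16.3% of the counts of the pair in wild type (14.9 to 17.7) and 3.83% in *tuft* (2.52 to 5.57).

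**Figure D4:**
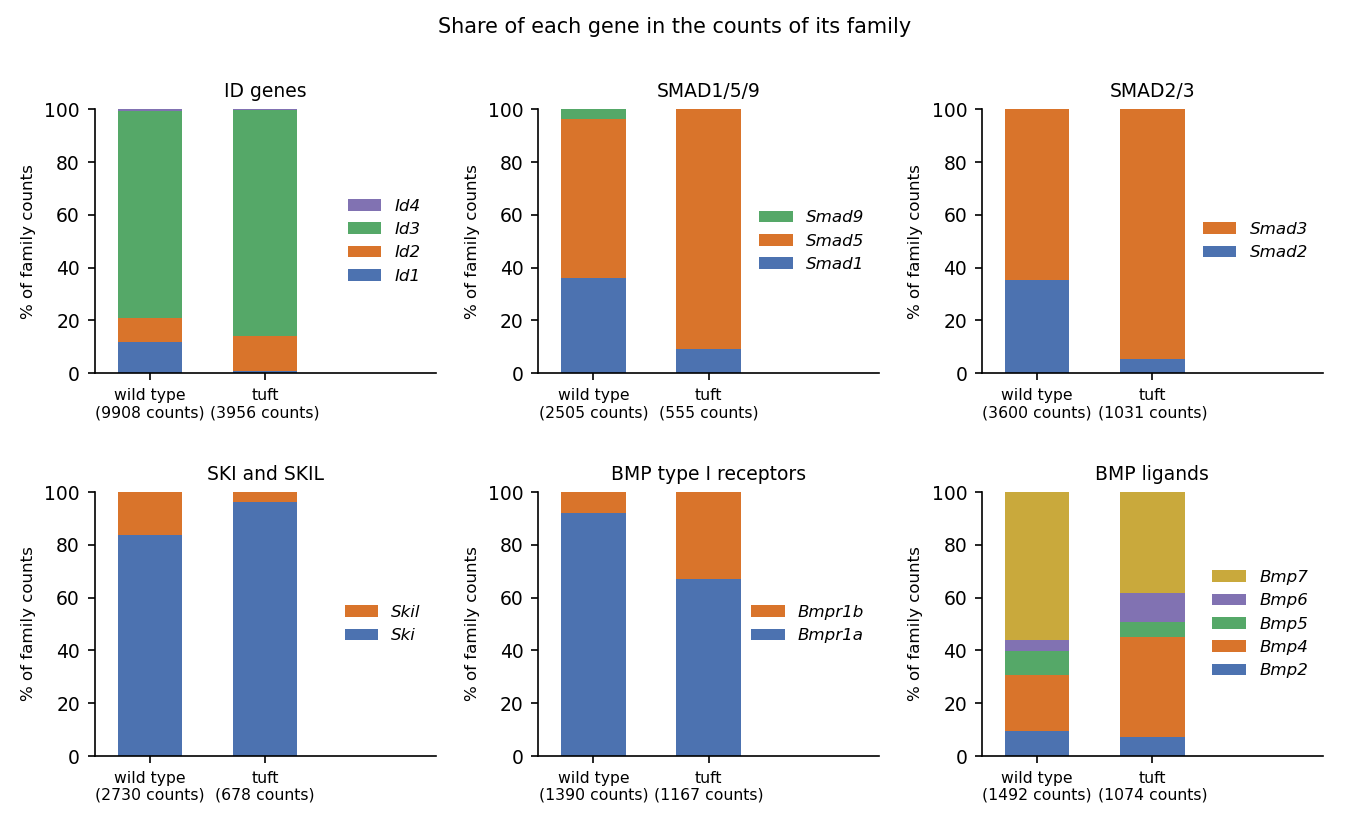
Share of each gene in the counts of its family, in percent of the family counts printed under each bar, for the wild-type and the *tuft* library. *Smad1*, *Smad2*, *Skil* and *Id1* take smaller shares in *tuft*, and *Bmpr1b*, *Bmp4* and *Bmp6* take larger ones.

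Of the 6 target genes, *Id1* and *Msx2* were lower in *tuft* (33.3%, beside 39.1% of all genes) and none was higher. *Id1*, an inhibitor of basic helix-loop-helix factors (chromosome 2, 152736251 to 152737410), had 1157 counts in wild type and 29 in *tuft*, or 70.8 and 5.17 CPM, a fold change of 0.0730 (0.0487 to 0.105). This was the lowest value among genes with counts in both libraries. The other ID genes did not share it. *Id2* had 920 and 528 counts with 1.67 (1.5 to 1.86), *Id3* had 7781 and 3384 with 1.27 (1.22 to 1.32), or 0.963 with library totals, and *Id4* had 50 and 15 with 0.874 (0.456 to 1.58). *Id1* made up 11.7% of ID gene counts in wild type (11.1 to 12.3) and 0.733% in *tuft* (0.491 to 1.05), and *Id3* made up 78.5% (77.7 to 79.3) and 85.5% (84.4 to 86.6). The sum of the 4 ID genes, carried by *Id3*, had a fold change of 1.16 (1.12 to 1.21) and of 0.885 with library totals, so its direction depended on the scaling.

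The homeobox genes *Msx1* and *Msx2*, which mark the dorsal midline, were both below wild type. *Msx2* had 274 and 44 counts, or 16.8 and 7.84 CPM, a fold change of 0.468 (0.332 to 0.645). *Msx1* had 71 and 13 counts, or 4.35 and 2.32 CPM, with 0.533 (0.271 to 0.971), which was under 2-fold, and was past it with library totals (0.406). *Msx2* made up 79.4% of the counts of both in wild type (74.8 to 83.6) and 77.2% in *tuft* (64.2 to 87.3), a difference that was not detectable with 57 counts in *tuft*. Both overlap an antisense or predicted gene in RefSeq, *Msx1os* and *Gm33763*.

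Levels of different genes were compared per length, for which the exons of each gene in the older NCBIM37 annotation were joined. On this scale of CPM per kilobase, *Id3* was first of the 39 genes in both libraries, at 265.9 in wild type and 336.7 in *tuft*. *Id1* was at rank 2 in wild type at 61.0 and came to rank 19 in *tuft* at 4.46. *Smad4* was at rank 5 in wild type, at 31.7, and at rank 2 in *tuft*, at 111.8. *Bmpr1b* was at rank 34 in wild type, at 1.11, and at rank 14 in *tuft*, at 11.4. *Bmp4* was at rank 15 in wild type, at 8.81, and at rank 5 in *tuft*, at 32.6. *Id2* was at rank 3 and *Acvr2b* at rank 4 in both libraries. *Acvr2b* had 1.75 kilobases of joined exon in that annotation, beside 5.69 for *Acvr2a*, and its rank depends on that length.

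The rest of the pathway was followed in 108 further genes, of which 72 had enough counts. Of these, 16 were higher (22.2%) and 35 were lower (48.6%), beside 22.5% and 39.1% of all genes, and their median log2 fold change was -0.92. Of 7 other ligands, 1 was higher and 5 were lower. The higher one was *Gdf10*, with 76 and 122 counts and a fold change of 4.67 (3.48 to 6.31). The 5 lower ones, *Gdf6*, *Bmp8b*, *Inha*, *Bmp3* and *Gdf7*, had 21 to 60 counts in wild type and all had 0 in *tuft*. Their mean levels were 0.643 to 1.84 CPM. Of all genes with a mean below 10 CPM, 71.0% were lower in *tuft* and 44.2% were at 0 there, so this outcome was common at such levels. These ligands, and below *Rgma* and the receptors listed after it, were picked out after their values were seen.

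All 7 other receptors and co-receptors were past 2-fold (61.6% of all genes), and 6 of them were lower (39.1% of all genes). The exception was *Rgmb*, a BMP co-receptor of the repulsive guidance family, with 212 counts in wild type and 524 in *tuft*, 7.20-fold higher (6.12 to 8.48). Its relative *Rgma* had 1499 and 70 counts with 0.136 (0.105 to 0.173), so that these co-receptors, like *Bmpr1b* and *Bmpr1a*, were not in the same proportion in both libraries. The other lower receptor genes were *Acvrl1*, *Hfe2*, *Acvr1b*, *Neo1* and *Eng*. *Acvrl1* and *Hfe2* had means below 10 CPM, where 84.7% of all genes were past 2-fold and 71.0% were lower. Endoglin (*Eng*) and *Acvrl1* are receptors of endothelium, of whose 10 markers 6 were lower in *tuft*, and the part of that in their values was not tested.

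Of 15 other extracellular regulators, 3 were higher (20%) and 6 were lower (40%), beside 22.5% and 39.1% of all genes. *Sostdc1*, a secreted antagonist of BMP and WNT signaling, had 130 and 140 counts and was 3.14-fold higher (2.45 to 4.01). *Ltbp1*, which stores latent TGF-beta in the matrix, had 999 and 152 counts with a fold change of 0.443 (0.371 to 0.526). Of 26 other intracellular regulators, 6 were higher (23.1%) and 8 were lower (30.8%), close to or below the same shares of all genes. *Lemd3*, an inner nuclear membrane protein that binds receptor-activated SMADs and dampens their signal, had 101 and 366 counts and was 10.6-fold higher (8.44 to 13.3). *Tob2*, of a family of antiproliferative proteins, had 531 and 943 counts and was 5.17-fold higher (4.64 to 5.76). The ubiquitin ligase *Smurf2*, which marks SMADs and receptors for degradation, had 1029 and 120 counts with 0.340 (0.279 to 0.411). *Usp15*, which removes ubiquitin from receptor-activated SMADs, had 997 and 105 counts with 0.307 (0.248 to 0.375). The coactivator *Ep300* had 2046 and 237 counts with 0.337 (0.294 to 0.386). The ubiquitin ligase *Nedd4l* had 245 and 3 counts, a ratio of 0.0357 (0.00730 to 0.105).

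Of 17 other target genes, 5 were higher (29.4%) and 10 were lower (58.8%), beside 22.5% and 39.1% of all genes. *Dlx5*, a homeobox gene of the anterior neural ridge and the face, had 313 and 426 counts and was 3.96-fold higher (3.42 to 4.60). *Fn1*, which encodes fibronectin, had 14442 and 1152 counts with a fold change of 0.232 (0.219 to 0.247). *Cyr61*, a matricellular gene induced by TGF-beta, had 614 and 2 counts, a ratio of 0.00949 (0.00115 to 0.0344). The T-box gene *Tbx2* had 306 counts and 1 count, a ratio of 0.00952 (0.000240 to 0.0534). *Tgfbi*, named for its induction by TGF-beta, had 227 and 0 counts. It was 26.0-fold lower at the limit used for a count of 0, and at least 21.0-fold lower by the exact interval.

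**Figure D5:**
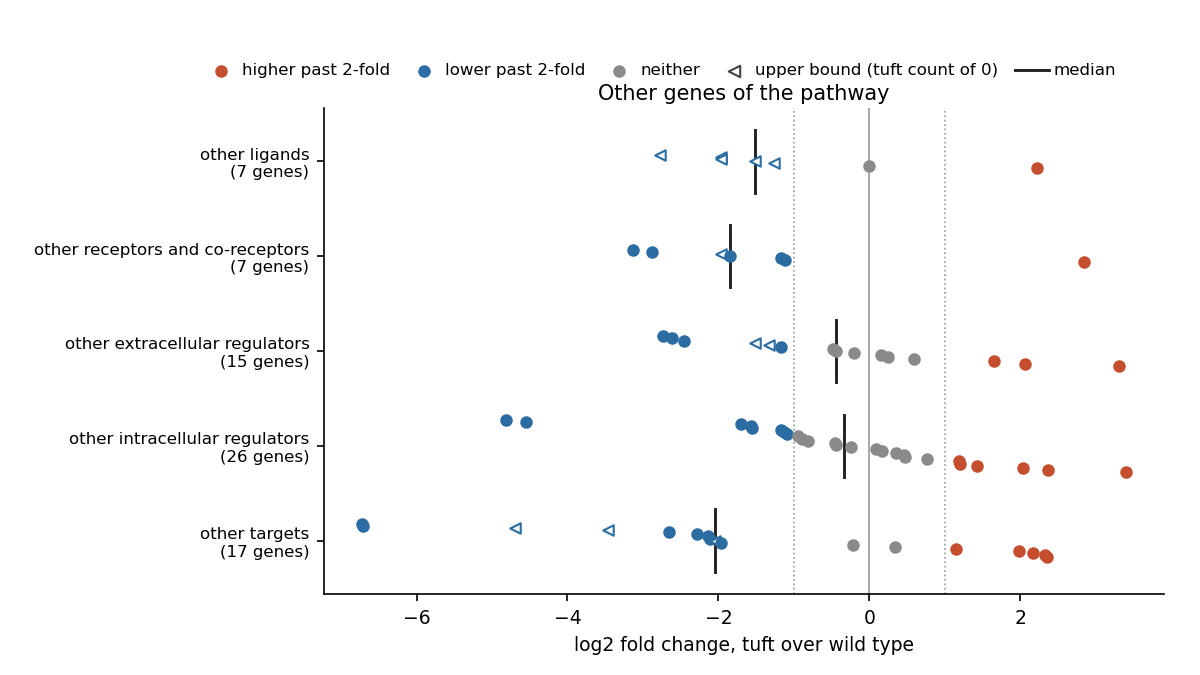
Log2 fold change of the 72 other genes of the pathway with enough counts, each point a gene, in 5 groups with the median of each as a vertical bar and open triangles for upper bounds where *tuft* had a count of 0. Genes called lower outnumber those called higher in each group, with 35 lower and 16 higher in all.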

How the data were processed

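RNA of E9 rostrums was sequenced, with counts given as 1 column for *tuft* and 1 for wild type. Per the paper's methods, the authors made libraries from poly-A RNA, ran them on an Ion Proton, trimmed and aligned the reads (TopHat, mm10), and counted them per gene (htseq-count). The submitters' notes name TopHat2 2.0.14, Bowtie2 2.2.5 and SAMtools 0.1.18. The deposited values are raw counts per gene symbol, without normalization. The overlap mode, strand setting and gene models of the counting are not given in the sources used here. The 5 summary lines of each column were left out of library totals.

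The 39 genes, the lists of other pathway genes and the marker lists were chosen with earlier results of these data known. Each symbol was matched exactly. Counts were normalized with TMM in edgeR 4.0.16 (R 4.3.3), with a factor of 0.761 for *tuft* relative to wild type. Fold changes and exact (Clopper-Pearson) 95% intervals were computed with scipy 1.17.1 in Python 3.11.15. The computation was tested on simulated data with counting noise only and most genes unchanged. In the real libraries 61.6% of genes were past 2-fold, so that test does not show whether the scaling holds here. With 1 library per genotype no quasi-likelihood test can be fitted. The simulation method of the study, NOISeq-sim, was not re-run, since its simulated libraries carry counting noise only. Reads have no molecular identifiers, so intervals and limits cover counting error only. A count of 0 was replaced by 3 counts in its library for a bound, which corresponds to 0.184 CPM in wild type and 0.535 CPM in *tuft*. The exact 95% interval of a count of 0 reaches somewhat further than this limit. CPM values use TMM library sizes.

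Alternatives were library totals, the upper quartile and the median of ratios (DESeq2 1.42.0) for the normalization, folds of 1.5 and 4, intervals wholly past 2-fold, minima of 1 and 200 counts, and 0.5 added to every count. Named genes are all 39 genes, *Tet1*, and of the other pathway genes the 5 highest and 5 lowest ratios among those with at least 100 counts in both libraries and those with at most 3 counts in 1 library and at least 100 in the other. Beyond this rule, *Gdf10*, *Gdf6*, *Bmp8b*, *Inha*, *Bmp3*, *Gdf7*, *Rgma*, *Acvrl1*, *Hfe2*, *Acvr1b*, *Neo1* and *Eng* were named after their values were seen. Positions, overlaps and promoters came from RefSeq genes of GRCm38.p6, where all 39 symbols were found.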

Additional observations from a re-analysis of the deposited data

How the results depend on the processing

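Without a second library of either genotype, the spread between embryos cannot be measured, and fold changes near 2 are the least firm. No paired analysis was possible because each genotype has 1 column of counts. With the upper quartile or the median of ratios in place of TMM, 19 of the 39 genes were past 2-fold, 8 higher and 11 lower, as with TMM. Of all genes, 61.5% and 61.8% were past 2-fold under these. Library totals gave 20, 7 higher and 13 lower, since *Bambi* was no longer past 2-fold while *Acvr1* and *Msx1* were. The 20 were 52.6% of the genes that could be called, beside 62.5% of all genes. Scaling by totals shifted every log2 fold change by -0.39, to a median of -0.30 for the signaling genes and -0.78 for all genes. Of the calls, 18 of 19 (7 higher, 11 lower) were made under all 4 normalizations and with 0.5 added to every count, and no call changed direction. *Tgfb1*, *Tgfb2*, *Acvr2b*, *Smad3*, *Smad7* and *Id3*, none of them past 2-fold, were above wild type with TMM and below it with library totals. A threshold of 4-fold left 10 of the 39 genes, 2 of them higher, and 27 of the other pathway genes in place of 51. The 10 were 26.3% of the 38 genes tested, beside 33.4% of all genes. A minimum of 200 counts left 32 of the other pathway genes past 2-fold, with fewer genes tested. It also left 15 of 27 signaling genes tested (55.6%), beside 52.9% of all genes. A minimum of 1 count gave 20 of 39 (51.3%), beside 47.8% of all genes. At both minima the share of the signaling genes was thus above that of all genes, and in every other setting it was below. A threshold of 1.5-fold gave 24 genes (63.2%, beside 75.8%), and intervals wholly past 2-fold gave 18 (47.4%, beside 50.6%). Apart from library totals, medians were from 0.04 to 0.34.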
